A study of Mus musculus with 12 samples.

Results

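The 10 genes described here are the muscle atrophy ubiquitin ligases Trim63 and Fbxo32, the FoxO transcription factors Foxo1 and Foxo3, and 6 genes of autophagy and lysosomal breakdown, Bnip3, Map1lc3a, Map1lc3b, Gabarapl1, Sqstm1 and Ctsl. They were chosen by gene symbol from a list, and all 10 were found among the 24421 entries of the count table and passed the filter on low counts, which left 13937 genes for testing. RNA was taken from the tibialis anterior, a fast hindlimb muscle, of male mice at an age of 4 months, in 6 samples of the strain C57Bl/6 (WT) and 6 of mdx/mTR. In mdx mice Dmd, which encodes dystrophin, is mutated, and mTR stands for the telomerase RNA gene Terc. The labels give neither the telomerase generation nor the background strain of the mdx/mTR mice, and there is no group with 1 of the 2 alleles alone, so the 2 alleles and any strain difference cannot be told apart. The labels name each sample separately without stating that each came from its own animal, so the p-values measure the spread between these samples.

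In skeletal muscle, Trim63 (MuRF1) and Fbxo32 (atrogin-1) are ubiquitin ligases made almost only in muscle fibres, and their mRNAs rise in fasting, disuse, denervation and glucocorticoid excess. FoxO factors switch on both ligases and many autophagy genes when insulin and Akt signalling is low. In autophagy, proteins of the ATG8 family, which include those of Map1lc3a, Map1lc3b and Gabarapl1, are attached to the growing membrane, receptors such as p62 (the product of Sqstm1) and Bnip3 bring cargo or mitochondria to it, and lysosomal proteases such as cathepsin L (Ctsl) degrade the contents. Autophagy itself is a flux of protein and membrane, which mRNA levels do not measure.

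Start-site sequences were available in the RefSeq table (GRCm38.p6, the assembly also called mm10) for 8 of the 10 genes. A window of 250 bases before to 50 bases after each start was searched on both strands for the FoxO core GTAAACA, the E-box CACGTG, its extension TCACGTGA, and the shorter ACGTG, which every CACGTG contains. GTAAACA occurred in 1 of the 8 windows, that of Trim63, against 3.65% of 32851 windows in the table. CACGTG occurred in 2 of the 8, those of Bnip3 and Ctsl, against 7.15%, the same 2 held ACGTG against 19.6%, and TCACGTGA was in none of the 8 against 0.974%. The RefSeq start of Ctsl lies 370 bases inside the GENCODE gene, so its window may not cover the start used in muscle and is not shown. The 250 bases before the start are printed for Trim63, because it holds the FoxO core, and for Bnip3, because it holds the E-box. The capitals in the Trim63 window mark the reverse complement of GTAAACA, whose first base lies at position -194 from the start, and those in the Bnip3 window mark CACGTG, at -108. The Trim63 window is at chr4:134314870-134315119 on the plus strand, and the Bnip3 window is at chr7:138909507-138909756 on the minus strand.
Trim63: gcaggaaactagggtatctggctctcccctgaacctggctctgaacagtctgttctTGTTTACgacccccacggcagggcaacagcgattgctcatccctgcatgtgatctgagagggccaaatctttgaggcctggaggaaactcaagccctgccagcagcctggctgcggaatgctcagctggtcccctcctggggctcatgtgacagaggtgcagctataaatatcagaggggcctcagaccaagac
Bnip3: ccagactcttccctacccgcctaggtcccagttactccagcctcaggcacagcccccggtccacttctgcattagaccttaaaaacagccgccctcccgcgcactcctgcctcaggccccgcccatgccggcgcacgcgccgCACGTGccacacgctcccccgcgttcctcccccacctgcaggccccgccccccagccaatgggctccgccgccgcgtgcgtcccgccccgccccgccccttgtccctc
A match is a stretch of letters and not a measured binding site, and the levels of Trim63 and Bnip3 are given below with those of the other genes.

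Library totals ran from 35136327 to 60330410 counts. Levels are counts scaled to a common library size (CPM) on library sizes scaled by TMM, the trimmed mean of M-values, and differences are log2 fold changes, positive where mdx/mTR was higher, from edgeR's quasi-likelihood test, with p-values adjusted by Benjamini-Hochberg over all 13937 genes and a threshold of 0.05. Dmd lay at 228 to 244 CPM in WT and 35.2 to 56.4 CPM in mdx/mTR, and Terc had 2 counts in all, too few to be tested. Of the 8 fibre markers (Ckm, Acta1, Myh4, Mylpf, Tnnt3, Tnni2, Atp2a1 and Pvalb), all were abundant in both groups. Their summed level was 181026 to 212277 CPM in WT and 143800 to 199132 CPM in mdx/mTR. Mylpf was called higher (log2 fold change 0.42, edgeR adjusted p 0.0032). Myh4, the most abundant of the 8, was called lower, from a mean of 66076 to 43138 CPM (-0.62, adjusted p 0.0027). The next largest fall in mean level among the 8 was that of Atp2a1, from 43203 to 39490 CPM, which was not called. Scaling to the summed counts of these 8, used below, therefore follows the fall of Myh4 in large part. Markers of some other cells were higher in mdx/mTR, with 9 of 10 macrophage genes, 7 of 8 tested genes of regenerating fibres and myoblasts, and 6 of 6 fibroblast genes. Others were lower, with 3 of 5 endothelial and 4 of 5 Schwann cell genes and 0 higher in either list, and 0 of 4 tested adipocyte genes were called. In whole muscle, fewer cells of a type and less RNA per cell cannot be told apart.

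Among the 10 genes, 2 were higher in mdx/mTR, Map1lc3a and Ctsl, and 2 were lower, Fbxo32 and Sqstm1, while the other 6 did not pass the test. Over all genes tested, 48.3% were called, 25.0% higher and 23.4% lower, so 4 of 10 is close to the background. Their median log2 fold change was 0.02, against 0.01 over all genes. The 6 WT and 6 mdx/mTR libraries did not overlap for Map1lc3a and Ctsl, that is for 2 of the 10, against 25.2% of all genes.

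**Figure D1:**
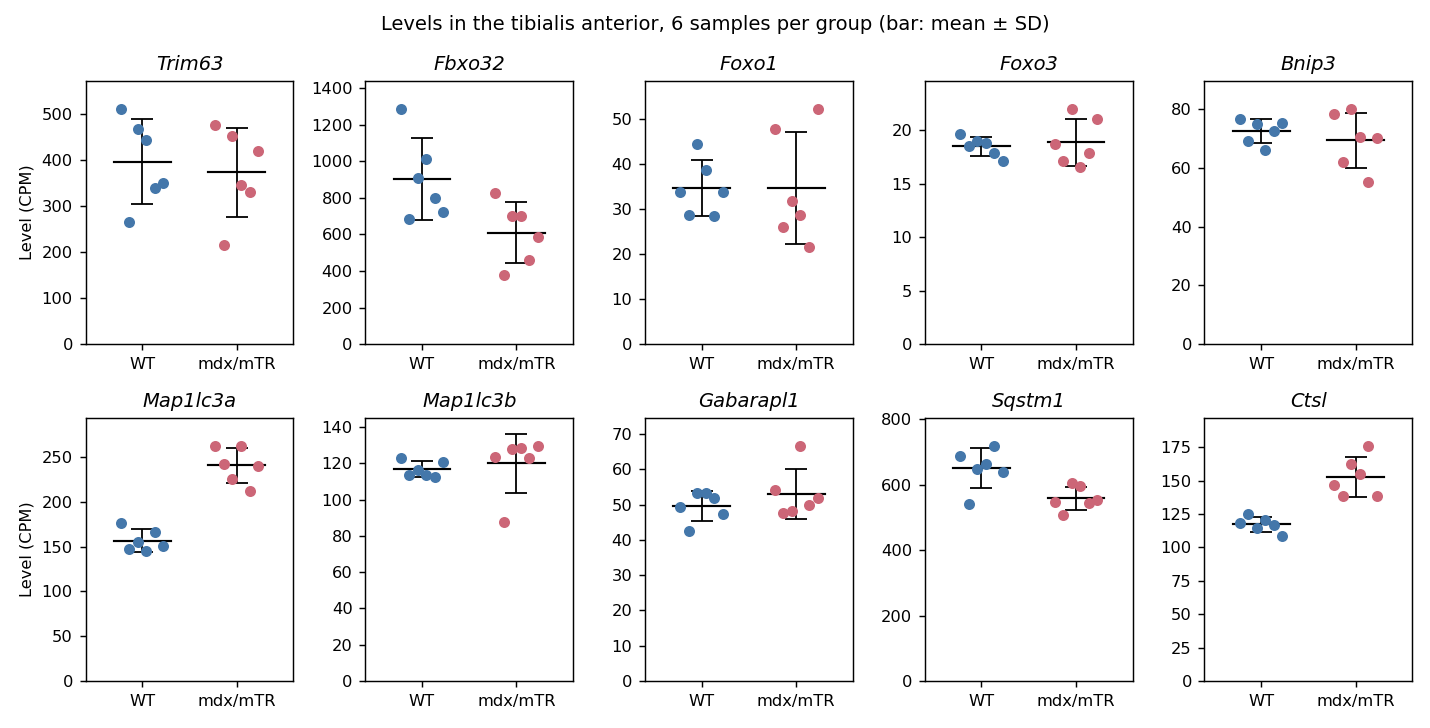
Level of each gene in CPM (y axis, from 0) in the 6 WT and 6 mdx/mTR samples; points are samples in order of replicate number, and bars are the mean ± SD. All 6 mdx/mTR points lie above all 6 WT points for Map1lc3a and Ctsl, and the groups overlap for the other 8 genes.

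Per length of transcript, Sqstm1 was the most abundant of the 10 in WT, at 319 ± 30.0 CPM per kilobase (SD, n = 6), followed by Trim63 (210 ± 49.0), Map1lc3a (141 ± 11.2) and Fbxo32 (129 ± 32.0). Ctsl (59.6 ± 2.81), Map1lc3b (46.0 ± 1.73), Bnip3 (41.3 ± 2.29) and Gabarapl1 (27.3 ± 2.32) came next. The FoxO factors were lowest, Foxo1 at 4.00 ± 0.71 and Foxo3 at 2.70 ± 0.13 CPM per kilobase. Map1lc3a and Fbxo32 lay within their spread of each other in WT. In mdx/mTR, Map1lc3a (216 ± 17.9) and Trim63 (198 ± 51.0) lay within their spread, and Fbxo32 was at 87.2 ± 24.0 CPM per kilobase. The length is that of the principal transcript in GENCODE M21, so the order depends on which transcripts the muscle makes.

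The 2 ligases behaved differently. Fbxo32, on chromosome 15 (58175879 to 58214932, minus strand), had a lowest, median and highest level of 682, 853 and 1284 CPM in WT and of 380, 642 and 828 CPM in mdx/mTR. The groups overlapped, but 3 mdx/mTR libraries, those of replicates 2, 5 and 6, lay below every WT library. Mean levels were 902 ± 223 and 608 ± 167 CPM (SD, n = 6 each), so that mdx/mTR stood at 67.4% of WT, with a log2 fold change of -0.57 ± 0.19 (SE; edgeR adjusted p 0.0240). The fall rested in part on WT replicate 1, the highest library at 1284 CPM: without it the log2 fold change was -0.44 (edgeR adjusted p 0.0611). It also missed the threshold with library totals alone (-0.42, adjusted p 0.0525) and with scaling to the 8 fibre markers (-0.34, adjusted p 0.0584). Over its 23 alternatives the adjusted p ran from 0.000497 to 0.0611.

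Trim63, on chromosome 4 (134315120 to 134329629, plus strand), had a lowest, median and highest level of 266, 397 and 511 CPM in WT and of 216, 383 and 476 CPM in mdx/mTR. The ranges covered each other almost completely. The log2 fold change was -0.09 ± 0.19 (edgeR adjusted p 0.728), with a 95% interval of -0.50 to 0.33, so a moderate change in either direction was not detectable, and the value turned positive with library totals alone, with scaling to the fibre markers and without mdx/mTR replicate 2.

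Whether the 2 ligases changed unequally was tested on the ratio of their counts in each library, which no library scaling can move. The log2 ratio of Trim63 over Fbxo32 had a mean of -1.19 ± 0.16 (SD) over the 6 WT samples and of -0.70 ± 0.21 over the 6 mdx/mTR samples. This is 0.440 against 0.616 counts of Trim63 per count of Fbxo32, with ranges of 0.390 to 0.516 and 0.496 to 0.722 that overlap at their ends. The difference of 0.49 ± 0.11 (SE) had a two-sided exact permutation p of 0.00433 and an adjusted p of 0.00649 over the 3 ratios tested. It ranged from 0.44 to 0.55 when each sample was left out in turn, with adjusted p from 0.00649 to 0.0130. So Fbxo32 fell relative to Trim63, although Trim63 itself did not pass the test. This pair was chosen with earlier results of these data known, so the ratio test is not independent of the fall of Fbxo32 given above.

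**Figure D2:**
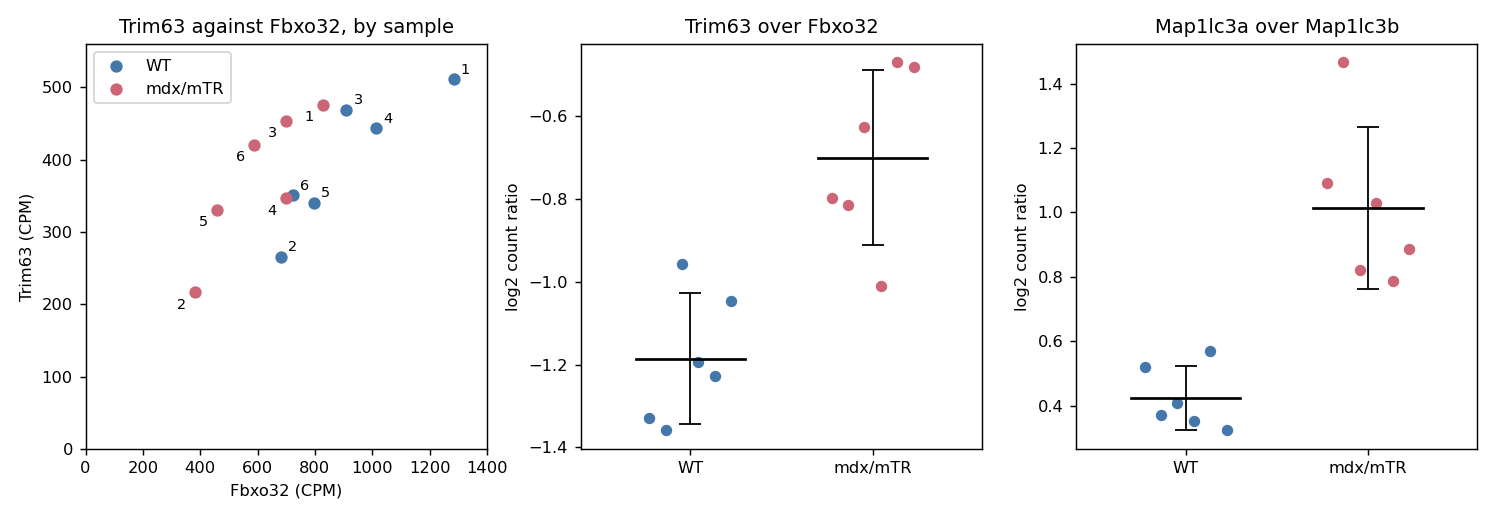
Left, Trim63 against Fbxo32 in CPM for each sample, with replicate numbers. Middle and right, the log2 ratio of counts of Trim63 over Fbxo32 and of Map1lc3a over Map1lc3b in each sample (points), with mean ± SD (bars). In the left plot the mdx/mTR samples lie to the left of WT samples of like Trim63 level, and in the right plot the groups do not overlap.

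Within a group the levels of the 2 ligases had high correlations, none of which passed after adjustment. Over the 6 WT samples, Pearson's r of log2(CPM + 0.5) between Trim63 and Fbxo32 was 0.897 (exact permutation p 0.0111, adjusted p 0.0889 over the 8 relations computed) and Spearman's rho was 0.886 (exact permutation p 0.0333, adjusted p 0.133). Over the 6 mdx/mTR samples, r was 0.873 (exact permutation p 0.0361, adjusted p 0.144) and rho 0.943 (exact permutation p 0.0167, adjusted p 0.133). Replicates 1 and 2 were the farthest from the median of Trim63 in both groups, and without them r was 0.843 in WT and 0.533 in mdx/mTR, so the relation in mdx/mTR rests in part on those samples.

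The samples with the least of both ligases in mdx/mTR were replicates 2 and 5 (Fbxo32 at 380 and 458 CPM, Trim63 at 216 and 331 CPM). The same 2 libraries had the highest summed level of the macrophage list, at 511 and 747 CPM against 280 to 477 CPM in the other 4, and of the regeneration list, at 306 and 583 CPM against 147 to 193 CPM. They also had the lowest summed level of the fibre markers, 151046 and 143800 CPM. Replicate 6, where Fbxo32 was also below every WT library (586 CPM) and Trim63 was at 420 CPM, differed from these 2. It had 293 CPM of the macrophage list, 156 CPM of the regeneration list and 189020 CPM of the fibre markers. The part of these cell types in the ligase levels was not tested.

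Genes whose level followed each ligase most closely were sought among 9508 genes of at least 5 CPM, by the Pearson r over the 12 libraries after each group's mean was subtracted. These are descriptions without a test, and all libraries share their scaling. For Fbxo32 the closest were Dhx57 (r 0.961) and Zfyve1 (0.930). Zfyve1 was higher in mdx/mTR (log2 fold change 0.25, edgeR adjusted p 0.0190), and Dhx57 did not pass (-0.03, adjusted p 0.721). For Trim63 they were Xk (0.955), Kat8 (0.950) and Rab12 (0.935), of which Xk (-0.50, edgeR adjusted p 0.0010) and the membrane traffic GTPase gene Rab12 (-0.53, adjusted p 0.000339) were lower in mdx/mTR and Kat8 (-0.06, adjusted p 0.590) did not pass.

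The FoxO factors showed no shift in mean. Foxo1, on chromosome 3 (52268336 to 52353221, plus strand), had a lowest, median and highest level of 28.4, 33.7 and 44.5 CPM in WT and of 21.6, 30.3 and 52.1 CPM in mdx/mTR. In mdx/mTR, replicates 1 and 6 lay above every WT library and replicates 2 and 5 below every one. The coefficient of variation was 17.8% in WT and 35.7% in mdx/mTR, a difference that was not tested. The log2 fold change was 0.01 ± 0.20 (edgeR adjusted p 0.985; 95% interval -0.44 to 0.45), with a sign that changed among the alternatives.

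Foxo3, on chromosome 10 (42181841 to 42276755, minus strand), had a lowest, median and highest level of 17.1, 18.7 and 19.7 CPM in WT and of 16.6, 18.3 and 22.0 CPM in mdx/mTR. Its log2 fold change was 0.03 ± 0.07 (edgeR adjusted p 0.757; 95% interval -0.13 to 0.19), so a change as large as that of Fbxo32 lay outside the interval. With library totals alone it was 0.18 (edgeR adjusted p 0.0387), close to the median of all genes under that scaling, 0.17. The log2 ratio of Foxo1 over Foxo3 was 0.89 ± 0.23 in WT and 0.81 ± 0.44 in mdx/mTR (exact permutation p 0.706, adjusted p 0.706). Neither Foxo1 with Fbxo32 (r 0.428 in WT and 0.600 in mdx/mTR, exact permutation adjusted p 0.574 and 0.316) nor Foxo1 with Trim63 (r 0.730 and 0.651, adjusted p 0.228 in each group) showed a relation that passed over the 6 samples of a group. Spearman's rho was 0.600 in both groups for the first pair (exact permutation adjusted p 0.322) and 0.771 in both for the second (adjusted p 0.206). Without the 2 samples farthest from the median of Foxo1, r was 0.565 and 0.714 for the first pair and 0.755 and 0.466 for the second.

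Of the 3 ATG8 family genes, Map1lc3a rose and the other 2 did not pass the test. Map1lc3a, on chromosome 2 (155276297 to 155278073, plus strand), had a lowest, median and highest level of 145, 153 and 177 CPM in WT and of 212, 241 and 262 CPM in mdx/mTR. Every mdx/mTR library lay above every WT library. Means were 157 ± 12.4 and 241 ± 19.9 CPM (SD, n = 6 each), so mdx/mTR stood at 154% of WT, with a log2 fold change of 0.62 ± 0.07 (SE; edgeR adjusted p 9.42e-06). It passed the threshold in 23 of 23 alternatives, from 0.56 to 0.86.

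Map1lc3b, on chromosome 8 (121590361 to 121598760, plus strand), encodes LC3B, the family member most used to follow autophagosomes. It had a lowest, median and highest level of 112, 115 and 123 CPM in WT and of 87.6, 125 and 130 CPM in mdx/mTR. Replicate 2 was far below the other 5 mdx/mTR libraries, which lay at 123 to 130 CPM, and 4 of those 5 lay above every WT library. The log2 fold change was 0.04 ± 0.08 (edgeR adjusted p 0.707), and without mdx/mTR replicate 2 it was 0.12 (adjusted p 0.0311), so 1 library decided the call.

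The log2 ratio of Map1lc3a over Map1lc3b had a mean of 0.42 ± 0.10 (SD) over the 6 WT samples and of 1.01 ± 0.25 over the 6 mdx/mTR samples, that is 1.34 counts of Map1lc3a per count of Map1lc3b against 2.02. Ranges were 1.25 to 1.48 and 1.72 to 2.76, without overlap. The difference of 0.59 ± 0.11 (SE) had a two-sided exact permutation p of 0.00216, the smallest this design allows, and an adjusted p of 0.00649. Since this pair was chosen with the rise of Map1lc3a known, the test adds that Map1lc3b did not rise to the same extent. Leaving out each sample gave 0.50 to 0.64.

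Gabarapl1, on chromosome 6 (129533160 to 129542346, plus strand), encodes a family member of the GABARAP branch. It had a lowest, median and highest level of 42.5, 50.6 and 53.4 CPM in WT and of 47.7, 50.8 and 66.6 CPM in mdx/mTR, where replicate 4 was highest. The log2 fold change was 0.10 ± 0.08 (edgeR adjusted p 0.353; 95% interval -0.09 to 0.28). It was called higher with library totals alone (0.25, edgeR adjusted p 0.0162), where the median of all genes was 0.17.

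The genes closest to Map1lc3a over the 12 libraries, after subtraction of group means, were the ubiquitin-conjugating enzyme gene Cdc34 (r 0.971), the mitochondrial fission gene Fis1 (0.965) and Myeov2 (0.934), among the same 9508 genes. In the group comparison Cdc34 went the other way (log2 fold change -0.27, edgeR adjusted p 0.000873), while Fis1 (0.14, adjusted p 0.0810) and Myeov2 (0.14, adjusted p 0.0666) did not pass. All 4 have short longest coding transcripts, of 1112 bases for Map1lc3a, 1266 for Cdc34, 948 for Fis1 and 653 for Myeov2, against a median of 3150 over tested genes. GC content was 63.1% for Map1lc3a, 63.3% for Cdc34, 54.4% for Fis1 and 50.4% for Myeov2, against a median of 50.2%. With a correction for GC content and length, which was added after seeing the data, the log2 fold change of Map1lc3a was 0.56 (edgeR adjusted p 2.51e-05). Their part in the likeness was not tested.

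Among the receptors, Sqstm1 fell slightly and Bnip3 did not pass. Sqstm1, on chromosome 11 (50199366 to 50210827, minus strand), had a lowest, median and highest level of 540, 656 and 719 CPM in WT and of 508, 550 and 604 CPM in mdx/mTR. The groups overlapped through WT replicate 2, the lowest WT library, and 1 mdx/mTR library lay below all of WT. Means were 650.4 ± 61.2 and 559 ± 35.8 CPM (SD, n = 6 each), or 85.9% of WT, with a log2 fold change of -0.22 ± 0.07 (edgeR adjusted p 0.0184). This call held with 2 other scalings, relative log expression and upper quartile, and was lost with the 2 that follow. With library totals alone the value was -0.06 (edgeR adjusted p 0.430), and scaled to the fibre markers it was 0.03 (adjusted p 0.766). Relative to the median of all genes under each scaling, it was -0.23 in each of the 3.

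Bnip3, a receptor for the removal of mitochondria that also responds to low oxygen, lies on chromosome 7 (138890836 to 138909519, minus strand). Its lowest, median and highest levels were 66.2, 73.7 and 76.7 CPM in WT and 55.2, 70.4 and 79.9 CPM in mdx/mTR, where replicates 2 and 5 lay below every WT library and replicates 1 and 3 above every one. The log2 fold change was -0.06 ± 0.08 (edgeR adjusted p 0.537; 95% interval -0.24 to 0.12), with a positive sign for library totals alone and for fibre marker scaling. Bnip3 and Gabarapl1 showed no relation that passed within WT (r 0.0289, exact permutation adjusted p 0.881) or mdx/mTR (r 0.215, adjusted p 0.881), with rho of -0.143 and 0.257 (exact permutation adjusted p 0.803 and 0.752), and r was -0.498 and -0.597 without the 2 samples farthest from the median of Bnip3.

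Ctsl, on chromosome 13 (64359337 to 64370890, minus strand), rose. Its lowest, median and highest levels were 109, 117 and 125 CPM in WT and 138, 151 and 176 CPM in mdx/mTR, and every mdx/mTR library lay above every WT library. Means were 117 ± 5.54 and 153 ± 14.9 CPM (SD, n = 6 each), or 130% of WT, with a log2 fold change of 0.38 ± 0.06 (edgeR adjusted p 0.000262), past the threshold in 23 of 23 alternatives. Cathepsin L is made in muscle fibres and in macrophages. In the macrophage list (Adgre1, Cd68, Csf1r, C1qa, C1qb, Cd163, Mrc1, Itgam, Lyz2 and Cd14), 9 of 10 genes were higher and none was at 0 in either group, and its summed level was 102 to 174 CPM in WT and 280 to 747 CPM in mdx/mTR. Within mdx/mTR, replicate 5 was highest in both the macrophage list (747 CPM) and Ctsl (176 CPM). Replicates 3 (477 CPM for the list and 163 CPM for Ctsl) and 4 (411 and 155 CPM) lay above replicates 1 (280 and 146 CPM) and 6 (293 and 138.3 CPM) in both. Replicate 2, with the next highest macrophage level after replicate 5 (511 CPM), had the lowest Ctsl level of the group (138.2 CPM). The part of macrophages in the rise of Ctsl was not tested.

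**Figure D3:**
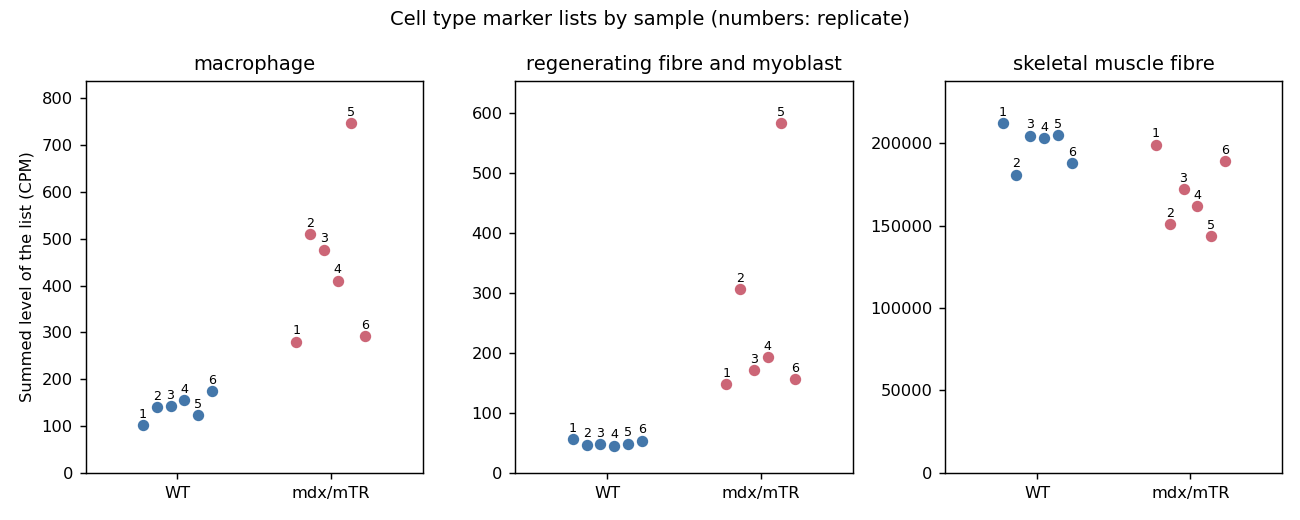
Summed level in CPM (y axis, from 0) of the marker lists of macrophages, of regenerating fibres and myoblasts, and of skeletal muscle fibres in each sample, with replicate numbers. The macrophage list lies at 102 to 174 CPM in WT and 280 to 747 CPM in mdx/mTR, and replicates 2 and 5 are the lowest of mdx/mTR for the fibre list.

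The scaling of libraries moves all of these values together. TMM factors of WT (0.929 to 0.971) lay below those of mdx/mTR (0.988 to 1.16), and all genes together had a median change (log2) of 0.01 with TMM, 0.17 with library totals alone and 0.26 with scaling to the fibre markers. With library totals alone 4 of the 10 genes were called higher and 0 lower, beside 5596 higher and 1560 lower of all 13937 genes. With the fibre markers 5 of the 10 were higher and 0 lower, beside 5908 and 802 of all genes. Relative to those medians, Map1lc3a stood at 0.60, Ctsl at 0.37 to 0.38 and Fbxo32 at -0.60 to -0.58 under the 3 scalings. Over all genes, 51.6% of calls were higher with TMM, 78.2% with library totals alone and 88.0% with the fibre markers.

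**Figure D4:**
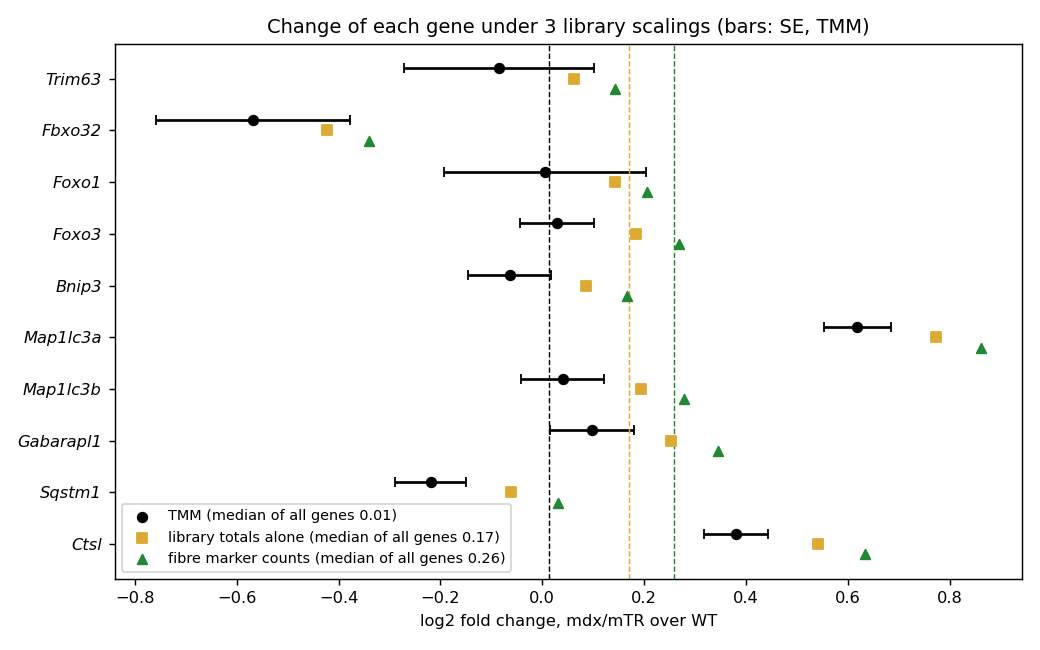
Log2 fold change, mdx/mTR relative to WT (x axis), for each of the 10 genes with TMM scaling (circles, bars are the SE), library totals alone (squares) and scaling to the 8 fibre marker genes (triangles); dashed lines are the median of all tested genes under each. Fbxo32 stays to the left of 0 and Map1lc3a and Ctsl to the right of 0 under all 3, while Sqstm1 moves from -0.22 to 0.03.

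A further 110 tested genes of the same pathways, from 7 lists of 111, give the surroundings of these 10. Of the 110, 16 were higher and 31 lower in mdx/mTR, beside 25.0% and 23.4% over all genes, with a median log2 fold change of -0.08. With library totals alone the counts were 35 higher and 15 lower, and with the fibre markers 38 and 10, so the balance of directions moved with the scaling. The balance over all genes moved as well. It was 3479 higher and 3257 lower with TMM, 5596 and 1560 with library totals alone, and 5908 and 802 with the fibre markers. These values over all genes are the background for each of the 7 lists under the same scaling.

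Of 16 other muscle ubiquitin ligases and ligase adaptors, 8 were lower, 0 higher and 8 not called (median -0.16), beside 23.4% lower over all genes. Scaled by library totals alone, 6 were lower and 2 higher (median -0.01), and with the fibre markers 5 were lower and 2 higher (median 0.07). Asb2, an adaptor of a cullin ligase, went from 1111 ± 186 to 619 ± 113 CPM (log2 fold change -0.84 ± 0.13, edgeR adjusted p 0.000149). Trim54 (MuRF3), the close relative of Trim63, went from 436 ± 53.0 to 280.5 ± 23.0 CPM (-0.64 ± 0.08, adjusted p 5.08e-05), without overlap of the groups.

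Of 18 FoxO relatives and upstream kinases, 1 was higher and 8 lower (median -0.11), beside 25.0% higher and 23.4% lower over all genes. The higher one was Prkaa1, a catalytic subunit of AMP-activated kinase, from 21.8 to 26.8 CPM (0.30 ± 0.08, edgeR adjusted p 0.0064). Prkaa2, the other catalytic subunit and the more abundant, was lower, from 512 to 443 CPM (-0.21, edgeR adjusted p 0.0224). Tsc2 (-0.31 ± 0.04, adjusted p 5.47e-05) and Tsc1 (-0.27 ± 0.06, adjusted p 0.0024), which together restrain mTOR, were lowest. Mtor itself was lower too (-0.24, edgeR adjusted p 0.000456). Prkaa2 and Mtor were named after their values were seen. The counts were 2 higher and 2 lower with library totals alone. With the fibre markers 2 were higher and 0 lower, so that neither Tsc gene passed, and neither Prkaa2 nor Mtor was called lower.

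Among 15 other FoxO target genes, 3 were higher and 2 lower (median 0.07), beside the same 25.0% and 23.4% over all genes. They gave 6 higher and 2 lower for library totals alone and 7 and 2 for the fibre markers. Gadd45a, a growth arrest gene that also marks denervated muscle, rose from 19.8 ± 2.98 to 38.5 ± 7.04 CPM (0.96 ± 0.12, edgeR adjusted p 3.90e-05), and Cited2 rose by less (0.50 ± 0.13, adjusted p 0.0056). The third was the stress response gene Sesn1 (0.45, edgeR adjusted p 0.000366), named after its values were seen. Mstn, which encodes the growth inhibitor myostatin, fell from 45.8 ± 5.40 to 12.1 ± 3.30 CPM (-1.92 ± 0.16, adjusted p 1.13e-06), and Irs2, an adaptor of the insulin receptor, fell as well (-0.58 ± 0.14, adjusted p 0.0041). The directions of Gadd45a, Cited2, Mstn and Irs2 held under every scaling run.

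Genes of autophagy initiation and ATG8 conjugation were called in both directions with TMM, and those of cargo binding only as lower. The numbers depended on the scaling, and with TMM they stand beside 25.0% higher and 23.4% lower over all genes. In initiation, 1 of 12 was higher, Uvrag (0.24 ± 0.05, edgeR adjusted p 0.000768), and 1 lower, the kinase gene Ulk2, from 232 ± 14.9 to 175 ± 20.4 CPM (-0.40 ± 0.08, adjusted p 0.000715). In ATG8 conjugation and membrane supply, 2 of 18 were higher, Atg16l2 (0.35 ± 0.09, adjusted p 0.0047) and Wipi2 (0.18 ± 0.04, adjusted p 0.0042), and 3 lower, among them Atg4d (-0.24 ± 0.05, adjusted p 0.0024) and Atg2a (-0.17 ± 0.04, adjusted p 0.0037), both of which turned positive with the fibre markers. The third lower gene was Atg7 (-0.17, edgeR adjusted p 0.0209), named after its values were seen, as were the receptor genes Bcl2l13 and Fundc1 below. The initiation list gave, for library totals alone, 5 higher and 1 lower and the conjugation list 5 higher and 0 lower. With the fibre markers they gave 6 higher and 1 lower, and 6 higher and 0 lower. Of 12 cargo and mitophagy receptors, 4 were lower and 0 higher, led by the ubiquitin receptor gene Optn, from 156 ± 21.3 to 84.1 ± 7.93 CPM (-0.89 ± 0.09, adjusted p 6.33e-06). Phb2 (-0.19 ± 0.04, adjusted p 0.0014) followed and was positive with the fibre markers, and Bcl2l13 (-0.18, edgeR adjusted p 0.0094) and Fundc1 (-0.17, adjusted p 0.0490) were the other two, while both with library totals alone and with the fibre markers 4 of the 12 were higher and 1 lower.

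Of 19 lysosomal genes and their regulators, 9 were higher and 5 lower (median 0.04), beside 25.0% higher and 23.4% lower over all genes. The highest were the cathepsin genes Ctss, from 6.54 ± 1.90 to 52.7 ± 24.96 CPM (3.01 ± 0.31, edgeR adjusted p 6.66e-06), and Ctsk, from 5.52 ± 1.45 to 17.7 ± 3.90 CPM (1.68 ± 0.18, adjusted p 9.46e-06). Cathepsin S is made mainly by macrophages and other immune cells. The part of such cells in the rise of Ctss, beside the macrophage list given above (9 of 10 higher), was not tested. Ctsb, which encodes cathepsin B, rose from 417 to 625 CPM (0.58, edgeR adjusted p 0.000106), and Lamp2, a lysosomal membrane gene, from 103 to 145 CPM (0.50, adjusted p 3.91e-06). Tfeb, a regulator of lysosomal genes, was lower (-0.36, adjusted p 0.000471) along with Mitf (-0.25, adjusted p 0.0036) and Stx17 (-0.23, adjusted p 0.0051). Tfe3, another regulator in the list, went the other way, from 13.1 CPM in WT to 15.4 CPM in mdx/mTR (0.23, edgeR adjusted p 0.0158). Ctsb, Lamp2, Tfeb, Mitf, Stx17 and Tfe3 were named after their values were seen. For library totals alone the list had 11 genes higher and 3 lower. With the fibre markers it had 11 higher and 1 lower, which was Gaa, so Tfeb, Mitf and Stx17 were not called there. Gaa, the acid glucosidase of glycogen breakdown in lysosomes, fell from 400.1 ± 31.3 to 293 ± 24.4 CPM (-0.45 ± 0.07, adjusted p 0.00014), and Rab7, listed under its older symbol, fell from 235 ± 31.3 to 182 ± 16.0 CPM (-0.37 ± 0.09, adjusted p 0.0041) but did not pass with the fibre markers.

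**Figure D5:**
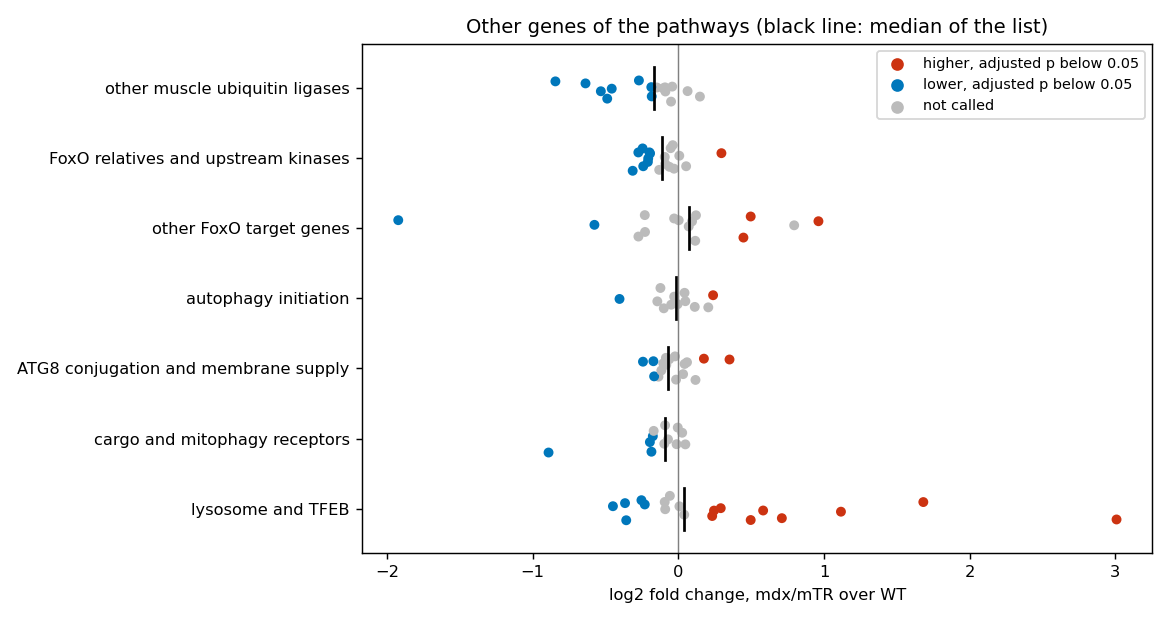
Log2 fold change, mdx/mTR relative to WT (x axis), for 110 genes in 7 lists; red points were called higher and blue points lower at an adjusted p below 0.05 in edgeR, grey points were not called, and black lines are list medians. All called ubiquitin ligases are lower, and the lysosome list holds the highest points, Ctss and Ctsk.

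Shared sequence limits some of these counts. Of the 50-base stretches of the principal transcript, 21.9% of those of Bnip3 and 13.4% of those of Map1lc3b occur in transcripts of other genes, such as Gm16439 and Gm6055, and their counts are uncertain because such reads may have been split or left out. For the other 8 the share was at most 0.476%. Exons of all but Trim63, Foxo3 and Map1lc3a overlap an annotated antisense gene, and Ctsl also overlaps Gm49230 on its own strand. The sources used here do not say whether counting used strand. In the authors' deposited table, the log2 fold changes were 0.60 for Map1lc3a, 0.37 for Ctsl, -0.54 for Fbxo32 and -0.23 for Sqstm1, each with an adjusted p below the threshold there, and the other 6 genes did not pass.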

How the data were processed

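RNA of the tibialis anterior in 6 WT and 6 mdx/mTR samples was sequenced. The authors deposited whole-number counts per gene symbol, 1 column per sample, with 0 columns left unmatched. Per the submitters' processing notes, FastQC, STAR and DESeq2 were used on mm10; the counter, annotation and strand handling are not given in the sources used here. The authors' deposited table of their comparison holds a mean signal, log2 fold changes with standard errors, a test score and p-values, per the file headers.

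Counts were tested with edgeR 4.0.16 in R 4.3.3: filterByExpr (13937 genes, 99.97% of counts), TMM, group as the only term, glmQLFit and glmQLFTest, Benjamini-Hochberg over all genes, threshold 0.05. The SE is the log2 fold change divided by the square root of F, and 95% intervals use the SE with 10 degrees of freedom. Ratios used counts with 0.5 added and exact permutation tests in scipy 1.17.1, where the smallest p is 0.00216. Correlations used exact permutations of pairings.

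Alternatives were other scalings, other filters, DESeq2 1.42.0, limma 3.58.1 (voom), a replicate block, a threshold of 0.01, each sample left out, and, for ratios, 5 added to each count or counts thinned to 35136327. The GC and length correction (values for 99.3% of genes) was added after seeing the data. The 10 genes and all lists were chosen with earlier results of these data known. Text names the 10 genes, up to 2 genes with the highest and 2 with the lowest change past the threshold in each pathway list, and the 3 genes most like each of Fbxo32, Trim63 and Map1lc3a, of which 1 is not reported here. Other genes were named after their values were seen. The fits were tested on simulated data. A floor of 3 counts is 0.0460 to 0.0837 CPM and covers counting error only.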

Additional observations from a re-analysis of the deposited data

Results flagged for a closer look

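Single samples stood apart from the other 5 of their group in 7 of 68 sets of 6 values, by Dixon's test at the 95% level (gap to the nearest sample over the whole range). Chance alone gives 3.4, and the sets are not independent. Among the 10 genes these were Map1lc3b in mdx/mTR replicate 2, at 87.6 CPM where the other 5 had 123 to 130 (gap over range 0.842), and Gabarapl1 in mdx/mTR replicate 4, at 66.6 CPM where the other 5 had 47.7 to 54.2 (0.654). Among the other pathway genes they were Trim54 in WT replicate 2 (335 CPM against 429 to 476), Ulk2 in WT replicate 2 (203 CPM against 229.5 to 243), Prkaa1 in WT replicate 3 (18.7 CPM against 21.8 to 23.0), Mstn in WT replicate 6 (35.0 CPM against 46.7 to 49.4) and Atg2a in WT replicate 5 (50.4 CPM against 53.4 to 55.0). No cause was tested for any of the 7.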

How the results depend on the processing

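Among the 10 genes, counts moved with the scaling. With library totals alone 4 were higher and 0 lower, with fibre marker scaling 5 and 0, and at an adjusted p of 0.01 the count of lower genes was 0. Of all 13937 genes, 5596 were higher and 1560 lower with library totals alone, and 5908 and 802 with fibre markers. At an adjusted p of 0.01, 4621 of them were called in either direction. The other pathway genes gave 35 higher and 15 lower with library totals alone and 38 and 10 with fibre markers. The median log2 fold change over the whole table was 0.17 and 0.26 under these 2 scalings, against 0.01 with TMM. Without 1 sample, 2 to 3 of the 10 were higher and 1 to 2 lower. The count of all genes called ran from 6125 to 6816 without 1 sample.

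Signs turned for genes that were not called: Trim63 was 0.0632 with library totals alone and 0.143 with fibre markers, Bnip3 0.0849 and 0.166, and Map1lc3b -0.00855 with the GC and length correction. Foxo1 was -0.000817 in DESeq2, -0.0461 in limma-voom and -0.0499 with the replicate block. Called genes that turned with fibre markers were Sqstm1 (0.0304), Atg4d (0.00229), Atg2a (0.0691) and Phb2 (0.0534). Leaving out 1 sample gave -0.179 to 0.0312 for Trim63, -0.147 to 0.107 for Foxo1, -0.0172 to 0.0645 for Foxo3, and -0.185 to 0.0319 for the log2 ratio of Foxo1 over Foxo3. The correlation of Bnip3 with Gabarapl1 was -0.312 in WT and -0.186 in mdx/mTR with library totals alone, and -0.598 to 0.605 in WT without 1 sample. The cause was not tested.

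Same-numbered libraries of the 2 groups had correlations of deviations from -0.155 to 0.354, with 2 of 6 above 0.1 and only numbers 1 and 2 matching their own number best, so the numbers were not taken to pair samples. With a replicate block, 6420 genes were called in place of 6736, 2 of the 10 higher and 2 lower, and 17 of the other pathway genes higher and 29 lower. The ratios of Map1lc3a over Map1lc3b and of Trim63 over Fbxo32 had an adjusted p of 0.0469 by exact sign flips. The unadjusted p of both was the smallest that sign flips of 6 pairs allow. The block changed no call among the 10 genes. Depth limits these genes little: the lowest level of any of the 10, that of Foxo3 in mdx/mTR at 16.6 CPM, stands against a floor of at most 0.0837 CPM.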
